A study of Mus musculus with 9 samples.

Results

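The insulin-like growth factor (IGF) system was examined in the RNA of SB28 mouse glioma cells grown in the brain and of brain cells labelled astrocytes. It was represented by 10 genes, taken as the rows of the deposited count table with their symbols, out of 24421 rows. They comprised 2 ligands (*Igf1*, *Igf2*), 2 receptors (*Igf1r*, *Igf2r*) and 6 binding proteins (*Igfbp2* to *Igfbp7*).

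All libraries came from brains of C57BL/6 mice. SB28 is a glioma line that carries GFP, and the study implanted it into the brain and sorted the GFP-positive tumor cells before sequencing, whereas the labels of the control and BAL101553 libraries read whole tissue. The control group (3 libraries) carries the treatment label control, and the BAL101553 group (3 libraries) comes from mice given BAL101553, an oral prodrug of a microtubule-disrupting compound that activates the spindle assembly checkpoint. The third group (3 libraries) is labelled astrocytes, with the treatment BAL101553. The text of the study does not describe these libraries, so how the cells were obtained is not given in the sources used here. In the study BAL101553-treated tumors were collected later than control tumors, at a similar tumor size, so treatment and time of growth cannot be told apart. Its text names fewer ex vivo samples per group than are held here, so whether its account of sorting and collection covers every library is not known. The sources do not say that the libraries of a group came from separate mice, and p-values measure the spread between these libraries only.

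IGF1 and IGF2 are secreted peptides that signal for growth and survival through the IGF1 receptor, a tyrosine kinase that feeds the PI3K-AKT and RAS-MAPK pathways. The IGF2 receptor, also the cation-independent mannose-6-phosphate receptor, has no kinase: it takes up IGF2 for degradation in the lysosome and sorts lysosomal enzymes. IGF-binding proteins hold the ligands outside the cell, limit their access to the receptor and release them when proteases cut them, and in the brain glia, vessels, meninges and the choroid plexus are known sources of ligands and binding proteins.

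Between 22919523 and 29230743 reads were counted in the astrocyte libraries, 24540452 to 28761388 in the control libraries and 26667789 to 34013875 in the BAL101553 libraries. Levels are given as CPM, counts scaled to library size with edgeR's TMM factors over all 9 libraries, and 3 counts correspond to 0.0871 to 0.134 CPM. The 10 genes took 0.369% to 0.447% of the counts in control libraries, 0.300% to 0.354% in BAL101553 libraries and 0.109% to 0.119% in astrocyte libraries. In the SB28 libraries the astrocyte markers *Gfap*, *Aqp4* and *S100b* lay below 1 CPM in every library, as did *Csf1r*, *C1qa* and *Ptprc* of microglia and all 5 ependymal markers. The astrocyte libraries held all 8 astrocyte markers (summed level 12298 to 15088 CPM) but also all 6 oligodendrocyte markers (10498 to 13039 CPM), all 10 microglia and macrophage markers (635 to 1327 CPM), all 6 choroid plexus markers (1874 to 4242 CPM) and all 5 ependymal markers (558 to 927 CPM) at 1 CPM or more. They likewise held all 6 endothelial (200 to 240 CPM), all 6 mural (1120 to 1262 CPM) and all 6 fibroblast and meningeal markers (147 to 174 CPM), and 3 of 6 neuronal markers. These libraries are therefore named by their label, and in bulk RNA fewer cells of a type and less RNA per cell cannot be told apart.

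The start regions of *Igfbp3*, *Igfbp4* and *Igfbp6* are shown because these binding proteins had the 3 lowest adjusted p-values of the 10 genes between control and BAL101553 libraries. Each is the 250 bases before the RefSeq transcription start (GRCm38.p6), read 5′ to 3′ on the gene's strand. Capitals mark the TATAAA motif or its reverse complement TTTATA.
Igfbp3 promoter, chr11:7213924-7214173, minus strand: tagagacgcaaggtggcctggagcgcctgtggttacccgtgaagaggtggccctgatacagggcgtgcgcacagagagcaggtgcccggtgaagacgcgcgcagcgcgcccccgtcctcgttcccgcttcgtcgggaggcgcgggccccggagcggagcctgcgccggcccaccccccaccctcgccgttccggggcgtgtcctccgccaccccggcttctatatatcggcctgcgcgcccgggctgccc
Igfbp4 promoter, chr11:99040994-99041243, plus strand: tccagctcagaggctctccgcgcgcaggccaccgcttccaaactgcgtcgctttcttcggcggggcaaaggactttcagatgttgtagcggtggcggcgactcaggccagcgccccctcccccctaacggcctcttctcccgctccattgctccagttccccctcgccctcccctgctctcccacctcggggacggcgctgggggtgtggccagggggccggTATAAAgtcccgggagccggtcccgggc
Igfbp6 promoter, chr15:102143936-102144185, plus strand: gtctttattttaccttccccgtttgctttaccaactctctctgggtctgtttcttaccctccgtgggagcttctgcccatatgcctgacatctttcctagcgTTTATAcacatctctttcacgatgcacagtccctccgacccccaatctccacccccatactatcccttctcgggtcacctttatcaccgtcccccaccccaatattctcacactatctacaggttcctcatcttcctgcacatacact
*Igfbp4* held TATAAA, the consensus of the TATA box, with its first base 28 bases before the start, and *Igfbp6* held the reverse complement 148 bases before it. The *Igfbp3* window held no exact TATAAA but reads tatatat close to the start. The search could not match that stretch, so the missing match does not show that a TATA box is absent. TATAAA occurred in 2 of the 14 start windows of the 10 genes and in 12.4% of 32851 RefSeq windows of the same length. GGGCGG, the core of the GC box, occurred on either strand in 6 of the 14 windows (32.7% of all) but in none of these 3. TGANTCA, the AP-1 consensus, occurred in 2 windows (6.75% of all), and TGTTTAC, a forkhead motif, in 0 (3.17% of all). The searched motifs overlapped one another at no base of the 3 windows shown. GC content was 73.2% for *Igfbp3*, 69.2% for *Igfbp4* and 49.6% for *Igfbp6*, against a median of 52.4% over all windows. The RefSeq start of *Igfbp6* used here lies before the gene's start in GENCODE, and a match describes letters only.

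To ask how BAL101553 treatment related to IGF gene expression in SB28 cells, the 3 BAL101553 and 3 control libraries were compared by the quasi-likelihood test of edgeR, and p-values of the 12633 genes tested were adjusted after Benjamini and Hochberg. In BAL101553 libraries *Igfbp6* was 1.85-fold higher and *Igfbp4* 1.68-fold lower, and these were the 2 of 9 tested IGF genes with an adjusted p under 0.05. Of all genes tested, 14.7% passed this threshold (8.64% higher and 6.09% lower). The groups did not overlap for 4 of the 9 genes (*Igf2r*, *Igfbp3*, *Igfbp4* and *Igfbp6*), against 39.7% of all genes tested. The median log2 fold change was 0.23 for the 9 genes and 0.016 for all genes. *Igfbp2* was not tested because its counts were too low. The plot of levels in each library gives all 10 genes in the 3 groups.

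**Figure D1:**
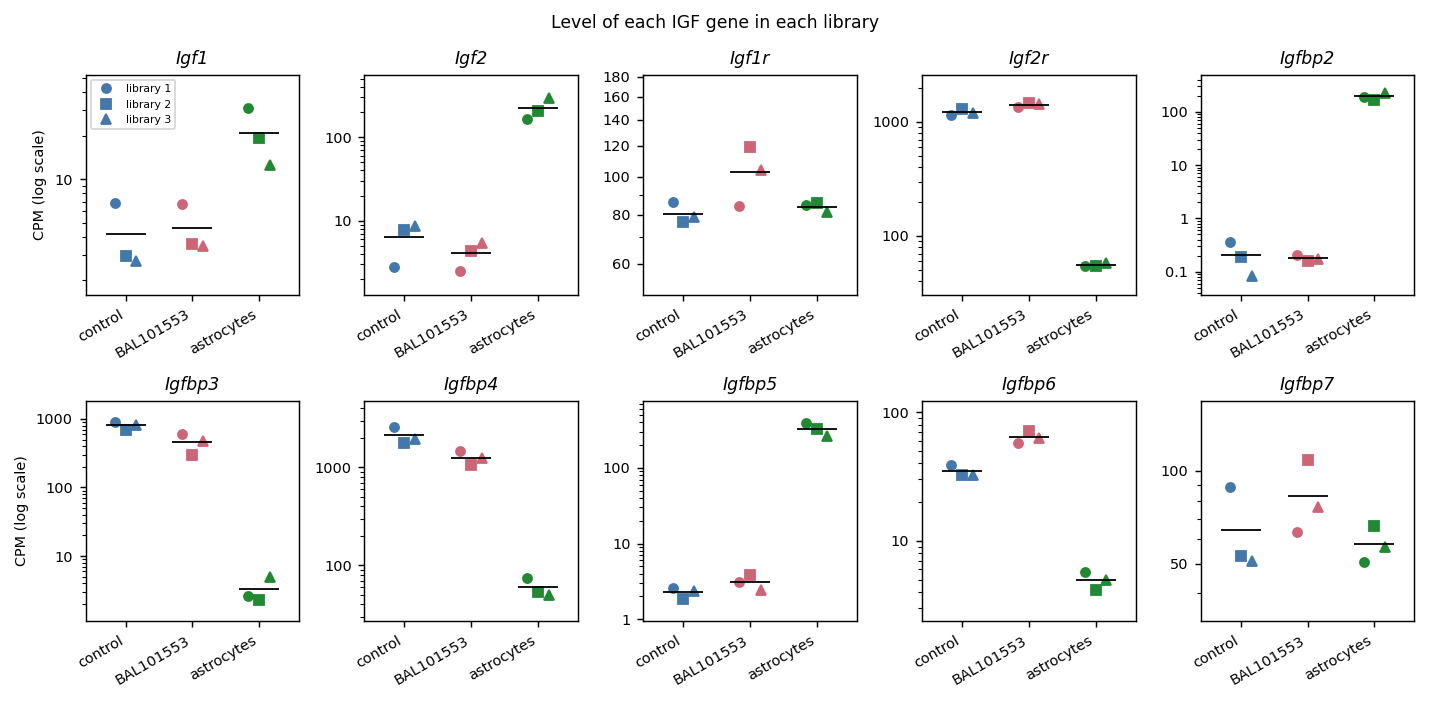
Level of each IGF gene (CPM, log scale, each panel with its own range) in the 9 libraries, with points for single libraries, marker shapes for library numbers and horizontal lines for group means. *Igfbp6* reached 57.2 to 70.9 CPM in BAL101553 libraries, above every control library (32.3 to 38.9 CPM), and *Igfbp2* and *Igfbp5* lay far above both SB28 groups in the astrocyte libraries.

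Neither ligand had an adjusted p under 0.05 in SB28 cells. *Igf1* (chromosome 10, 87858265 to 87937042, plus strand of GRCm38) encodes the main growth-promoting IGF after birth. It measured 6.88, 2.94 and 2.71 CPM in control libraries 1 to 3 and 6.72, 3.56 and 3.46 CPM in BAL101553 libraries 1 to 3. The groups overlapped, and library 1 of each group was the highest. The log2 fold change was 0.14 (SE 0.43, edgeR quasi-likelihood adjusted p = 0.836), and its sign turned to -0.24 without BAL101553 library 1, to -0.064 without control library 2 and to -0.095 without control library 3.

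*Igf2* (chromosome 7, 142650766 to 142666816, minus strand) encodes the fetal growth factor and in most tissues is expressed from the paternal allele. Its levels were 2.77, 7.67 and 8.67 CPM in control and 2.50, 4.38 and 5.46 CPM in BAL101553 libraries. Here library 1 of each group was the lowest, the reverse of *Igf1*, and the groups overlapped. The log2 fold change was -0.62 (SE 0.44, edgeR quasi-likelihood adjusted p = 0.354). *Igf2* shares 3596 exon bases on the same strand with the gene model Gm49394, for which no row was analysed here, and 98 exon bases with *Igf2os* on the opposite strand, and how reads over both were counted is not given in the sources used here. The maternally expressed noncoding RNA *H19*, whose gene lies 72622 bases from *Igf2* and is imprinted together with it, measured 20.4, 65.6 and 61.4 CPM in control and 66.4, 19.05 and 100.4 CPM in BAL101553 libraries. Its groups overlapped widely and library 1 was not low in both (log2 fold change 0.34, SE 0.59, edgeR quasi-likelihood adjusted p = 0.712).

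The receptors were expressed in every SB28 library and neither passed the threshold of 0.05. *Igf1r* (chromosome 7, 67952827 to 68233668, plus strand), the signaling receptor, had 86.1, 76.7 and 78.8 CPM in control and 84.4, 119 and 104 CPM in BAL101553 libraries. BAL101553 library 1 lay within the control range and the other 2 above it. The log2 fold change was 0.36 (SE 0.13, edgeR quasi-likelihood adjusted p = 0.101), and without BAL101553 library 1 it was 0.48 with an adjusted p of 0.0451. In the other 14 of 15 alternatives *Igf1r* did not pass, with an adjusted p of up to 0.249 (without control library 3).

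*Igf2r* (chromosome 17, 12682406 to 12769664, minus strand), the clearing receptor, had 1159, 1295 and 1194 CPM in control and 1344, 1471 and 1431 CPM in BAL101553 libraries. All 3 BAL101553 libraries were above all control libraries, by a narrow margin. The log2 fold change was 0.23 (SE 0.094) and did not pass (edgeR quasi-likelihood adjusted p = 0.134). The noncoding antisense RNA *Airn*, which overlaps *Igf2r* on the opposite strand without sharing exon bases, had 6.79, 6.81 and 6.88 CPM in control and 11.8, 17.7 and 13.3 CPM in BAL101553 libraries. Whether the counting used strand is not given in the sources used here, so reads of the pair might not be told apart, although *Igf2r* was far more abundant than *Airn*.

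Among the binding proteins, *Igfbp6* (chromosome 15, 102144362 to 102149511, plus strand) encodes the member that prefers IGF2 over IGF1. It measured 38.9, 32.3 and 32.8 CPM in control and 57.2, 70.9 and 63.1 CPM in BAL101553 libraries. Every BAL101553 library was above every control library, with group means of 34.6 ± 3.66 and 63.7 ± 6.86 CPM (SD, n = 3 libraries each). The log2 fold change was 0.89 (SE 0.12, edgeR quasi-likelihood adjusted p = 0.00856). The size stayed between 0.80 and 0.97 over the 15 alternatives, and the adjusted p was 0.0501 without control library 3 and 0.0733 with 2 libraries per group.

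*Igfbp4* (chromosome 11, 99041244 to 99054392, plus strand) encodes a binding protein known to restrain IGF signaling until the protease PAPP-A cuts it. Its levels were 2607, 1788 and 1950 CPM in control and 1469, 1049 and 1252 CPM in BAL101553 libraries. Every BAL101553 library was below every control library, although library 1 was the highest of both groups. The means were 2115 ± 434 and 1257 ± 210 CPM (SD, n = 3 each), with a log2 fold change of -0.74 (SE 0.18, edgeR quasi-likelihood adjusted p = 0.0322). The call depended on single libraries. The adjusted p was 0.0837 without control library 1, 0.0865 without control library 3, 0.0543 without BAL101553 library 2, 0.0881 without BAL101553 library 3 and 0.116 with 2 libraries per group, while DESeq2 gave 0.000471.

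*Igfbp3* (chromosome 11, 7206086 to 7213923, minus strand), which encodes the main carrier of IGFs in blood, had 908, 688 and 828 CPM in control and 601, 295 and 475 CPM in BAL101553 libraries. The groups did not overlap, but BAL101553 libraries were spread about 2 times apart (295 to 601 CPM). The log2 fold change was -0.81 (SE 0.24) and missed the threshold (edgeR quasi-likelihood adjusted p = 0.0566). The adjusted p was 0.00370 with DESeq2, 0.0488 with limma-trend, 0.0406 when every gene with at least 1 count was kept, and 0.0246 with the library number as a block. Without BAL101553 library 1 it was 0.0364, and without BAL101553 library 2 it was 0.0490. In the other 9 of 15 alternatives the adjusted p stayed above 0.05. It was 0.145 without control library 1, 0.153 without control library 3 and 0.120 with 2 libraries per group.

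*Igfbp7* (chromosome 5, 77349240 to 77408041, minus strand), a low-affinity relative deposited in vessel walls, had 88.7, 53.0 and 50.9 CPM in control and 63.1, 108 and 76.5 CPM in BAL101553 libraries. The groups overlapped (log2 fold change 0.37, SE 0.26, edgeR quasi-likelihood adjusted p = 0.351). It shares 85 exon bases with *Polr2b* on the opposite strand.

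*Igfbp5* and *Igfbp2*, which lie 5457 bases apart on chromosome 1 on opposite strands, were barely detected in SB28 cells. *Igfbp5* (72857932 to 72874884, minus strand) had 2.55, 1.86 and 2.38 CPM in control and 3.07, 3.87 and 2.44 CPM in BAL101553 libraries, with overlapping groups (log2 fold change 0.47, SE 0.27, edgeR quasi-likelihood adjusted p = 0.248). *Igfbp2* (72824503 to 72852474, plus strand) had 8, 5 and 2 counts in control and 6, 4 and 6 counts in BAL101553 libraries. These counts are close to the detection limit of 3, and a difference was not detectable at this depth.

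**Figure D2:**
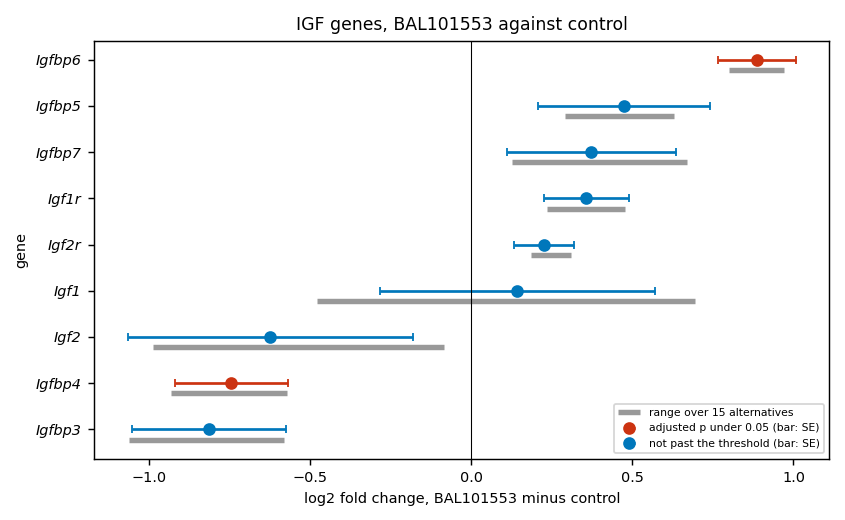
Log2 fold change of 9 IGF genes, BAL101553 minus control (x axis), with 1 row per gene, points with bars for the estimate ± SE from edgeR and gray lines for the range over 15 alternative analyses. *Igfbp6* (0.89) and *Igfbp4* (-0.74) had an adjusted p under 0.05, *Igfbp3* (-0.81) did not, and the gray line of *Igf1* crosses 0.

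The summed levels of some marker lists of other cells were also separate between the SB28 groups. For comparison, the groups did not overlap for 39.7% of all genes tested. The summed level of 6 fibroblast and meningeal markers was 5809 to 6712 CPM in control and 8078 to 9801 CPM in BAL101553 libraries, with most of the sum from the collagen genes *Col1a1* and *Col1a2*. In this list *Dcn* (3.8 to 5.58 CPM in control, 13.3 to 34.2 CPM in BAL101553 libraries) and *Ogn* (0.268 to 1.34 CPM and 5.97 to 13.6 CPM) also lay higher in every BAL101553 library, *Lum* overlapped, and *Slc47a1* was below 1 CPM in every SB28 library. The 6 endothelial markers summed to 726 to 858 CPM in control and 511 to 637 CPM in BAL101553 libraries. Of that sum *Cdh5* made up 690 to 815 CPM in control and 485 to 564 CPM in BAL101553 libraries, and *Slco1a4* was below 1 CPM in all. *Cldn5* and *Pecam1* lay at 1.45 CPM or less in the SB28 libraries and overlapped between the groups, as did *Flt1*. *Tek* was lower in every BAL101553 library. The 8 astrocyte markers summed to 923 to 966 CPM in control and 671 to 787 CPM in BAL101553 libraries, with most of it from *Gja1*. The 6 mural markers summed to 953 to 1105 CPM and 731 to 886 CPM, with *Kcnj8*, *Abcc9* and *Vtn* below 1 CPM in every SB28 library. In this list *Acta2* (689 to 885 CPM in control, 379 to 538 CPM in BAL101553 libraries) and *Rgs5* were lower in every BAL101553 library. *Pdgfrb* went the other way, from 216 to 261 CPM in control to 345 to 371 CPM in BAL101553 libraries. The part of these genes in the *Igfbp4*, *Igfbp3* and *Igfbp6* values was not tested.

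To compare levels between genes, CPM were divided by the length of the merged exons in kilobases. In control libraries *Igfbp4* was the highest of the 10 genes at 479 CPM per kilobase, followed by *Igfbp3* (258), *Igf2r* (131), *Igfbp7* (53.1), *Igfbp6* (31.2) and *Igf1r* (4.80 CPM per kilobase). *Igf2* (1.11), *Igf1* (0.422), *Igfbp5* (0.376) and *Igfbp2* (0.113 CPM per kilobase) followed. The library ranges of *Igf2* and *Igf1*, and of *Igf1* and *Igfbp5*, overlapped, and the other neighbors in this order were separate. Per kilobase, *Igf2r* and the 4 binding-protein genes *Igfbp4*, *Igfbp3*, *Igfbp7* and *Igfbp6* thus lay above both ligands in control libraries, whereas *Igfbp5* and *Igfbp2* had lower means than both.

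In BAL101553 libraries *Igfbp4* was again first, at 285 CPM per kilobase. *Igf2r* (152) and *Igfbp3* (146 CPM per kilobase) came next and overlapped, as did *Igfbp7* (68.4) and *Igfbp6* (57.3 CPM per kilobase). *Igf1r* stood at 6.11 CPM per kilobase, followed by *Igf2* (0.719), *Igfbp5* (0.521), *Igf1* (0.462) and *Igfbp2* (0.0962 CPM per kilobase). *Igf2* overlapped with *Igfbp5*, and *Igfbp5* with *Igf1*, while *Igf1r* and *Igfbp2* stood apart from their neighbors. With the longest transcript in place of merged exons, *Igfbp3* (189) came before *Igf2r* (159 CPM per kilobase) and *Igf1* (0.649) before *Igfbp5* (0.521 CPM per kilobase), so the order within both pairs depended on the length used.

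**Figure D3:**
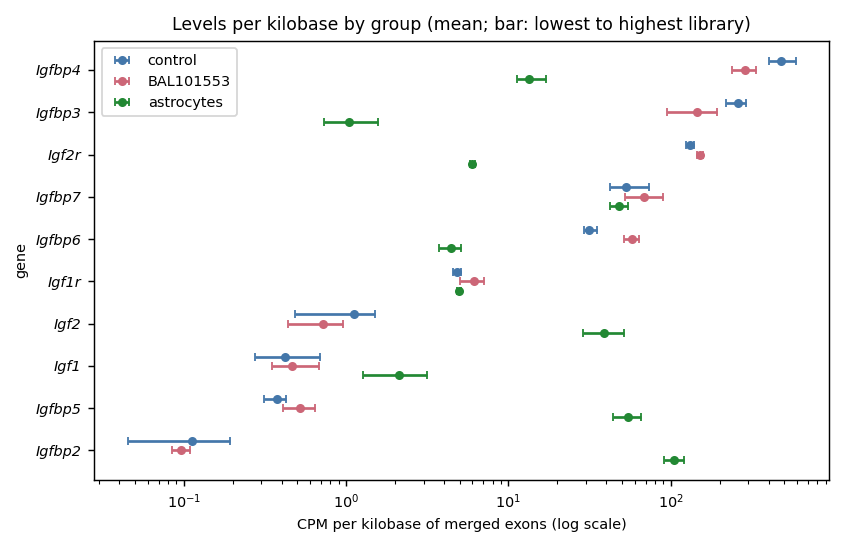
Level per kilobase of merged exons (CPM per kilobase, log scale, x axis) of the 10 IGF genes in the 3 groups, with points for means and bars from the lowest to the highest of 3 libraries. In control libraries *Igfbp4* (479) and *Igfbp3* (258) lead, whereas in the astrocyte libraries *Igfbp2* (105) and *Igfbp5* (54.8) do.

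As shares of the summed binding-protein level per kilobase, *Igfbp4* made up 58.1 ± 1.46% in control and 50.9 ± 2.0% in BAL101553 libraries (SD, n = 3). The share of *Igfbp3* was 31.6 ± 2.34% and 25.7 ± 5.73%, respectively. *Igfbp6* went from 3.83 ± 0.317% to 10.5 ± 2.48% and *Igfbp7* from 6.37 ± 1.01% to 12.7 ± 5.20%. The ranges of the 2 groups were separate for *Igfbp4*, *Igfbp6* and *Igfbp7* and overlapped for *Igfbp3*. These shares sum to a fixed total, so that they are not independent of each other, and they were not tested. The summed level itself was 822 ± 151 CPM per kilobase in control and 557 ± 71.6 CPM per kilobase in BAL101553 libraries.

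**Figure D4:**
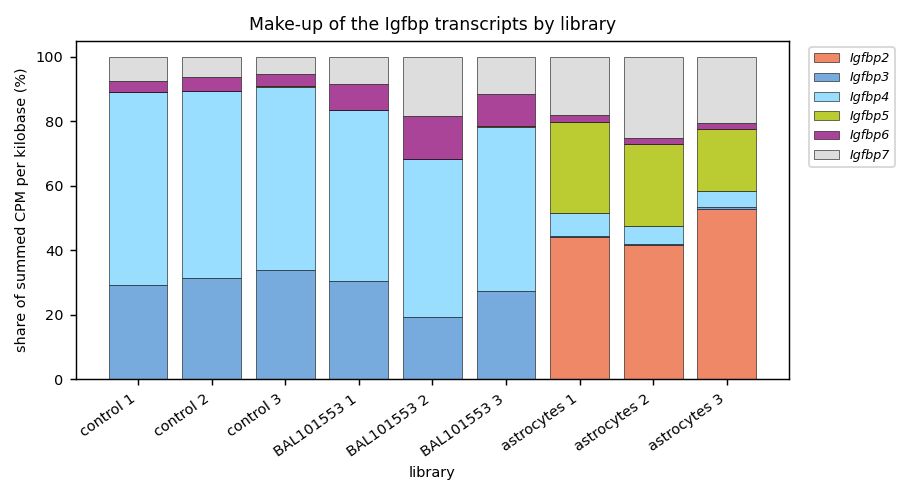
Share of each of 6 binding proteins in their summed CPM per kilobase (%, y axis, stacked to 100) in each of the 9 libraries (x axis). *Igfbp4* and *Igfbp3* fill most of each SB28 bar, *Igfbp6* widens from 3.83% (mean) in control to 10.5% in BAL101553 libraries, and *Igfbp2*, *Igfbp5* and *Igfbp7* fill most of each astrocyte bar.

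The genes most like the called members over the 6 SB28 libraries were found by Pearson's r of log2 CPM, as a description over libraries that include both treatments. For *Igfbp4* these were *Rap1gds1*, *Nell2* and *Mul1* (r of 0.9995, 0.998 and 0.996), and for *Igfbp6* they were *Taok3*, *Snora70* and *Kmt2c* (r of 0.998, 0.997 and 0.996). With 6 libraries such values were common: 171 and 267 of 12632 genes had an r over 0.95 with *Igfbp4* and *Igfbp6*, respectively.

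The wider pathway was described by a list of 60 genes, of which 52 were tested between BAL101553 and control libraries. Of these, 2 were higher and 6 lower with an adjusted p under 0.05, or 15.4% against 14.7% of all genes tested, a share near the background. The count fell when single libraries were left out, to 1 without control library 1, 1 without control library 3 and 3 without BAL101553 library 3. Calls over all genes fell in the same fits too, from 1860 to 458, 193 and 668, respectively.

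Of the insulin receptor and adaptor genes, 3 of 8 tested passed, 1 higher and 2 lower, against 14.7% of all genes tested (8.64% higher and 6.09% lower). Only *Grb14* of these 8 passed without control library 1, and likewise without control library 3. *Grb14*, an adaptor that inhibits the insulin receptor, had 36.0, 31.0 and 40.0 CPM in control and 11.4, 6.88 and 12.5 CPM in BAL101553 libraries, with every BAL101553 library lower (log2 fold change -1.79, SE 0.22, edgeR quasi-likelihood adjusted p = 0.00728). Its imprinted relative *Grb10*, which also binds and inhibits the insulin and IGF1 receptors, went the opposite way, from 13.6, 10.6 and 16.6 CPM in control to 51.6, 78.8 and 29.4 CPM in BAL101553 libraries (log2 fold change 1.98, SE 0.34, adjusted p = 0.0143). All 3 BAL101553 libraries were above the controls for *Grb10*, but they were spread widely. *Grb2*, which links receptors to RAS, was lower (log2 fold change -0.32, SE 0.085, adjusted p = 0.0424). The insulin receptor gene *Insr* had 76.3, 96.5 and 87.1 CPM in control and 85.8, 75.8 and 93.8 CPM in BAL101553 libraries, which overlapped (log2 fold change -0.018, adjusted p = 0.926).

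In the RAS-MAPK branch, 3 of 8 genes were lower, against 6.09% of all genes tested, and 0 higher, among them the RAS gene *Hras* (log2 fold change -0.63, SE 0.13) and the MEK gene *Map2k2* (-0.47, SE 0.10). Their edgeR quasi-likelihood adjusted p-values were 0.0214 and 0.0251, and the median log2 fold change of the 8 genes was -0.27, against 0.016 for all genes. Of the 8 genes, edgeR called 0 without control library 1, 0 without control library 3 and 1 without BAL101553 library 3. Without control library 1, 4 of the 8 (50%) had an unadjusted p under 0.05, against 26.9% of all genes. Without control library 3, 3 of the 8 (37.5%) did, against 24.8% of all genes. None of 21 PI3K-AKT-mTOR-FOXO genes passed in edgeR's quasi-likelihood test, where 6 had an unadjusted p under 0.05 (28.6%, against 34.1% of all genes tested). DESeq2 called 3 of them (*Akt1*, *Eif4ebp1* and *Pik3cb*, all lower), limma-trend called 1 (*Eif4ebp1*, lower), and scaling by library totals called 1 in the other direction (*Rictor*, higher).

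Of the genes that act on binding proteins, 1 of 4 tested passed, and of those for *Igf2* mRNA-binding proteins and the *Igf2* locus, 1 of 7, against 14.7% of all genes tested. *Stc2*, a secreted inhibitor of the proteases PAPP-A and PAPP-A2, had 7.73, 5.21 and 8.05 CPM in control and 13.3, 11.9 and 14.2 CPM in BAL101553 libraries, with no overlap (log2 fold change 0.92, SE 0.19, edgeR quasi-likelihood adjusted p = 0.0235). *Pappa*, which encodes the protease PAPP-A, had 16, 19 and 35 counts in control and 42, 14 and 30 counts in BAL101553 libraries and overlapped (log2 fold change -0.0072, adjusted p = 0.992). *Pappa2* had 1 to 3 counts per SB28 library. *Igf2bp3*, an oncofetal protein that binds *Igf2* mRNA, had 55.3, 56.1 and 59.9 CPM in control and 44.2, 32.1 and 36.7 CPM in BAL101553 libraries, which were all lower (log2 fold change -0.59, SE 0.13, adjusted p = 0.0245). The liver-type carriers were at the floor, with 1 count of *Igfbp1* in 1 control library and 0 in the others, 0 to 2 counts of *Igfals*, and 0 counts of the insulin gene *Ins2* in all SB28 libraries. *Igfbp1* lies 3539 bases from the highly expressed *Igfbp3*.

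**Figure D5:**
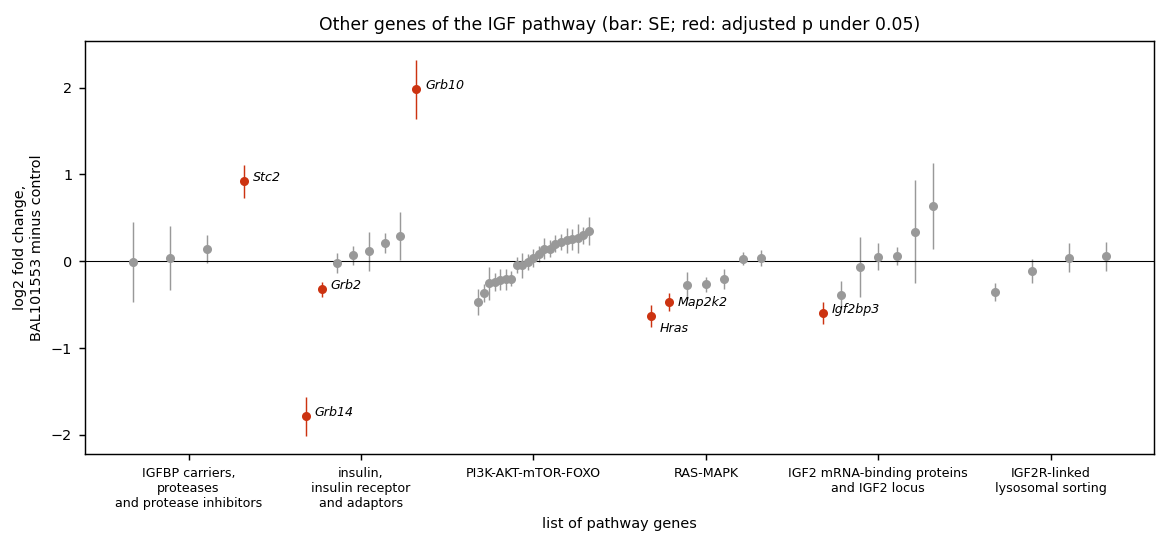
Log2 fold change (BAL101553 minus control, y axis, bars ± SE) of tested genes of the IGF pathway, arranged in 6 lists along the x axis, with adjusted p under 0.05 in red. *Grb10* (1.98) and *Grb14* (-1.79) lie farthest from 0, and the named RAS-MAPK genes *Hras* and *Map2k2* lie at -0.63 and -0.47.

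To ask how the IGF genes of SB28 cells differed from those of the other labelled cell population, the astrocyte libraries were compared with the BAL101553 libraries, which carry the same treatment label. All 10 genes passed the threshold of 0.05 in edgeR's quasi-likelihood test, 4 higher and 6 lower in the astrocyte libraries, but so had 85.1% of the 15314 genes tested (46.3% higher, 38.9% lower). The groups did not overlap for 8 of the 10 genes, against 87.9% of all genes tested. Against the control libraries, 8 of 10 genes passed, 4 higher and 4 lower, with 88.3% of 15207 genes (48.8% higher, 39.5% lower), and 8 did not overlap, against 89.8% of all genes tested. Being called here is thus no mark of the IGF genes, and the sizes and the directions carry the description. Both comparisons share the astrocyte libraries.

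Among the binding proteins, 2 were higher and 4 lower in the astrocyte libraries. *Igfbp2*, which encodes an abundant binding protein of the brain, measured 189.6, 167 and 224 CPM in the astrocyte libraries. Its log2 fold change was 10.01 against BAL101553 libraries (SE 0.20, edgeR quasi-likelihood adjusted p = 9.69e-09), with SB28 levels close to the floor. *Igfbp5*, which binds extracellular matrix, measured 394, 329 and 264 CPM and was about 104-fold higher (log2 fold change 6.69, SE 0.23, adjusted p = 8.23e-08). *Igfbp2* and *Igfbp5* were thus both high in the astrocyte libraries and both low in SB28 cells. *Igfbp3* measured 2.62, 2.30 and 4.89 CPM, about 145-fold lower than in BAL101553 libraries (log2 fold change -7.18, SE 0.41, adjusted p = 1.06e-06). *Igfbp4*, at 74.9, 53.8 and 49.7 CPM, was 21.7-fold lower (log2 fold change -4.44, SE 0.22, adjusted p = 4.77e-07). The astrocyte libraries did not overlap with SB28 libraries for any of these 4 genes.

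*Igfbp6*, at 5.71, 4.14 and 4.97 CPM in the astrocyte libraries, was 13.2-fold lower than in BAL101553 and 7.21-fold lower than in control libraries (log2 fold changes -3.72, SE 0.15, and -2.85, SE 0.15). *Igfbp7* was the binding protein with the most even level, at 50.8, 66.2 and 56.8 CPM in the astrocyte libraries, which overlapped with both SB28 groups. Its log2 fold change was -0.54 against BAL101553 (SE 0.19, edgeR quasi-likelihood adjusted p = 0.0272) and -0.19 against control libraries (SE 0.21, adjusted p = 0.414). Scaling by library totals turned the second to 0.12.

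Both ligands were higher in the astrocyte libraries. *Igf2* measured 165, 206 and 294 CPM, 52.3-fold above BAL101553 (log2 fold change 5.71, SE 0.34, edgeR quasi-likelihood adjusted p = 1.32e-06) and 33.5-fold above control libraries. *H19* went the other way, at 0.662, 0.919 and 0.925 CPM in the astrocyte libraries against 19.05 CPM or more in SB28 libraries, so the neighboring imprinted genes had opposite differences. *Igf1* measured 31.1, 19.2 and 12.5 CPM, 4.46-fold above BAL101553 libraries (log2 fold change 2.16, SE 0.39, adjusted p = 0.000980), with all 3 astrocyte libraries above all SB28 libraries.

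The ligands also differed among the astrocyte libraries, where markers of other cells differed too. *Igf2* was lowest in library 1 and highest in library 3, as was the choroid plexus transport gene *Ttr* (1663, 2263 and 3952 CPM) and the sum of the 6 choroid plexus markers (1874, 2472 and 4242 CPM). Most of that sum was *Ttr*, and *Aqp1* of the same list was highest in library 1 (94.5, 57.8 and 62.0 CPM). The endothelial sum (200, 229 and 240 CPM) and the fibroblast and meningeal sum (147, 161 and 174 CPM) had the same order as *Igf2*. The sums of the other marker lists did not have this order. *Igfbp2* had its highest level in library 3 and its lowest in library 2, as had the ependymal gene *Foxj1* (209, 186 and 277 CPM). *Igf1* was highest in library 1, whereas the microglial gene *C1qa* was lowest there (57.5, 144 and 101 CPM). The part of these cells in the IGF values was not tested.

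Both receptors passed against BAL101553 libraries, with very different sizes. *Igf2r* was 26.1-fold lower in the astrocyte libraries than in BAL101553 libraries, at 54.3, 54.5 and 57.8 CPM (log2 fold change -4.71, SE 0.10, edgeR quasi-likelihood adjusted p = 1.34e-08). *Igf1r*, at 84.6, 85.6 and 81.3 CPM, had a log2 fold change of -0.32 (SE 0.12, adjusted p = 0.0324) against BAL101553 and of 0.016 (SE 0.072, adjusted p = 0.842) against control libraries. It overlapped with both SB28 groups, and scaling by library totals brought the first to -0.12 (adjusted p = 0.376) and the second to 0.32 (adjusted p = 0.00205). The second was 0.27 (adjusted p = 0.00688) when at least 10 counts in every library were required, so whether *Igf1r* passed depended on the scaling and filter.

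Per kilobase, the order in the astrocyte libraries was *Igfbp2* (105), *Igfbp5* (54.8), *Igfbp7* (47.9), *Igf2* (38.7), *Igfbp4* (13.5), *Igf2r* (5.97), *Igf1r* (4.99), *Igfbp6* (4.44), *Igf1* (2.11) and *Igfbp3* (1.04 CPM per kilobase). Neighbors that overlapped were *Igfbp5* and *Igfbp7*, *Igfbp7* and *Igf2*, *Igf1r* and *Igfbp6*, and *Igf1* and *Igfbp3*. With the longest transcript as length, *Igf1r* (7.35) came before *Igf2r* (6.25 CPM per kilobase). *Igf2* thus stood above *Igf2r* per kilobase in the astrocyte libraries, and far below it in SB28 cells. *Igfbp2* made up 46.2 ± 5.86% of the summed binding-protein level (226 ± 8.84 CPM per kilobase), *Igfbp5* 24.2 ± 4.57% and *Igfbp7* 21.3 ± 3.72% (SD, n = 3).

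Of the 60 pathway genes, 54 were tested between astrocyte and BAL101553 libraries, and 15 were higher and 31 lower, or 85.2% against the 85.1% of all genes. The 3 genes for *Igf2* mRNA-binding proteins were close to absent in the astrocyte libraries, with *Igf2bp1* at 0.0707 to 0.385 CPM, *Igf2bp2* at 1.31 to 2.74 CPM and *Igf2bp3* at 0.106 to 0.308 CPM. *Grb14* was higher in the astrocyte libraries, at 89.6, 94.8 and 84.0 CPM, above both SB28 groups (log2 fold change 3.08, SE 0.22, edgeR quasi-likelihood adjusted p = 3.36e-06). *Grb10* lay at 12.4, 12.1 and 11.4 CPM, within the control range and below every BAL101553 library. *Pappa2*, at 49, 42 and 27 counts, was 16.0-fold higher (SE 0.44 on the log2 scale), *Stc2* was 19.5-fold lower at 0.672 to 0.694 CPM, and *Insr* did not pass (87.6, 93.3 and 88.5 CPM, adjusted p = 0.722).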

How the data were processed

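RNA was sequenced by the authors from 9 libraries. Their Methods describe stranded libraries, mapping with TopHat, a summary with Picard and counting, with HTSeq and featureCounts both named, and the submitters' processing notes give HTSeq 0.6.1 and the build mm10. The counter that made the table, its strand setting and its annotation are not given in the sources used here. The deposited values are raw counts of reads per gene, and all count columns were mapped to the 9 libraries.

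R 4.3.3 was used with the packages edgeR (4.0.16), limma (3.58.1) and DESeq2 (1.42.0). After filterByExpr and TMM scaling, groups were compared by the two-sided quasi-likelihood test of edgeR, with p-values adjusted after Benjamini and Hochberg across the table and a threshold of 0.05. Only the groups compared entered a fit. Standard errors are the absolute log2 fold change over the root of the F statistic. Within groups, libraries varied beyond sampling noise (chi-square per degree of freedom 14.3 to 64.9), and each was counted as a replicate. At these depths counting error limits only genes with few reads.

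Positions and exon lengths came from GENCODE vM21 on GRCm38, and start windows from RefSeq, which held all 10 genes. The tests were also run on simulated counts, drawn independently with the spread fitted to the control and BAL101553 libraries. That run checks the code only and does not bear on any single call given here. The IGF genes and all lists were chosen with earlier results of these data known. All 10 genes were named. Pathway genes were named where they passed the threshold between BAL101553 and control (at most 8, of which 1 is counted but not reported here by name or value), with *Igfbp1*, *Igfals*, *Insr*, *H19*, *Ins2*, *Pappa* and *Pappa2* in any case, and 3 genes were named for likeness to each IGF gene that passed. Markers, *Airn*, the PI3K genes and the other *Igf2bp* genes were named after their values were seen. Alternatives were other scalings, filters and tools, all libraries in 1 model, leaving out single libraries, fits on 2 libraries per group and the library number as a block.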

Additional observations from a re-analysis of the deposited data

How the results depend on the processing

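Between BAL101553 and control libraries, edgeR called 2 IGF genes, 1 higher and 1 lower. Leaving out 1 library gave 0 to 4 genes, 0 to 2 of them higher and 0 to 2 lower. The 0 arose without control library 3, where 3 of 9 IGF genes (33.3%) had an unadjusted p under 0.05, against 24.8% of all genes. With 2 libraries per group (control 1 and 2, BAL101553 2 and 3) edgeR called 0 IGF genes, 0 higher and 0 lower, 0 pathway genes and 1 gene of all. An unadjusted p under 0.05 was then found for 4 of 9 IGF genes (44.4%) and 12 of 52 pathway genes (23.1%), against 20.9% of all genes. The lower IGF genes were 2 with DESeq2, with limma-trend, with genes of at least 1 count kept, and in the fit with the library number as a block, each time through *Igfbp3* (log2 fold change -0.86 in the block). In 9 of the 15 alternatives *Igfbp3* did not pass. Library numbers are shared by the groups, but the sources do not say that equal numbers mark pairs, so they were not taken as pairs. The deviations of same-numbered control and BAL101553 libraries correlated at 0.143, 0.0114 and 0.146, and those of different-numbered ones at -0.194 to 0.082. Such few values cannot decide whether the libraries are paired. The 8 pathway calls became 13 with DESeq2 and 1 to 7 when 1 library was left out, and *Grb14* passed in each of these. Calls over all genes were 1860, with 193 to 1712 when 1 library was left out, 2832 with DESeq2 and 3022 with all 9 libraries in 1 model. Signs turned for *Igf1* (-0.48 with 2 libraries per group, and -0.24 to 0.69 with 1 library left out). Against control, the astrocyte value of *Igf1r* ran from -0.019 to 0.060 with 1 library left out and became a call at 0.32 under library totals (adjusted p = 0.00205) and at 0.27 with 10 counts in every library (adjusted p = 0.00688), and that of *Igfbp7* from -0.34 to 0.11, with 0.12 under library totals and 0.063 when 10 counts in every library were required. That filter removed *Igfbp2*. The call of *Igf1r* between astrocyte and BAL101553 libraries was lost in 9 of 14 alternatives and that of *Igfbp7* in 6. Library totals moved the median log2 fold change of all genes by 0.086 in BAL101553 against control, 0.20 in astrocytes against BAL101553 and 0.30 in astrocytes against control. The cause of these changes was not tested.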
